A study of Mus musculus with 12 samples.

Results

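DNA replication genes were followed in RNA from mouse small intestine. The set holds 45 genes, listed by name: factors that license replication origins, proteins of the replication fork, enzymes that supply deoxynucleotides, and chromatin and checkpoint factors that act at the fork. The rule names genes and uses no measured value. All 45 were found among the 55421 gene rows of the count table, and all 45 were among the 17394 genes with enough reads to be tested. The set was drawn up with earlier results of these data known.

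Before a cell divides it loads a ring of MCM proteins onto each origin with the help of ORC, CDC6 and CDT1. At the start of S phase, CDC45 and the GINS complex join the ring to form the active helicase, and DNA polymerases with the PCNA clamp copy both strands. Most genes of this machinery are transcribed under E2F factors when a cell enters the cycle. In the small intestine, DNA is copied mainly in the crypts, where stem cells and their dividing daughters sit, while cells on the villus have left the cycle.

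The study compared 3 groups of 4 libraries each. WT mice are labelled Wild Type, with no Cre named. Apc mice are VilCreER Apcfl/fl, and Apc Eif3h mice are VilCreER Apc fl/fl Eif3h fl/fl. VilCreER is a tamoxifen-activated Cre driven by the villin promoter, which is active in the epithelium of the gut, so floxed genes are lost in epithelial cells and not in the stroma or immune cells of the same tissue. Apc restrains Wnt and beta-catenin signalling, and Eif3h encodes a subunit of the translation initiation factor eIF3. Per the labels' protocols all mice received 2 intraperitoneal injections of 80 mg/kg tamoxifen 24 h apart. By its time-point label WT was taken on day 7 and both other groups on day 4, whereas the treatment text gives day 7, so genotype and day cannot be told apart in any comparison with WT. Apc Eif3h and Apc carry the same day label. WT had 3 males and 1 female (WT 4), Apc had 3 males and 1 female (Apc 1), and Apc Eif3h had 4 males. The labels do not state whether a group's libraries are separate animals. The p-values therefore reflect only how far these libraries differ, and that may be technical.

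WT libraries totalled 13915889 to 14589963 counts. Apc libraries spanned 10483112 to 18621953, and Apc Eif3h libraries spanned 14221414 to 21298301. Eif3h itself stood at 142, 126, 134 and 135 CPM (counts scaled to library size) in WT, 168, 164, 158 and 175 in Apc, and 28.3, 43.1, 54.6 and 25.9 in Apc Eif3h. All 4 Apc Eif3h libraries were below all others, with a log2 fold change against Apc of -2.13 ± 0.19 (SE; adjusted p = 0.000405). Apc transcripts were not lower in either Apc-deleted group (mean 94.2 CPM in WT, 114 in Apc, 104.8 in Apc Eif3h). Against WT they were called higher in Apc (0.28 ± 0.09 on the log2 scale, edgeR adjusted p = 0.0177). They were not called in Apc Eif3h (edgeR adjusted p = 0.142). Such counts sum all exons, so a missing floxed exon can go unseen in them. The tissue is a mixture, and in such bulk RNA fewer cells of a type and less RNA per cell cannot be told apart. Epithelial markers such as Epcam and Vil1 were abundant in every library (at least 1148 and 1129 CPM). Group means in WT, Apc and Apc Eif3h were 1873, 1553 and 1476 CPM for Epcam and 2717, 1643 and 1457 for Vil1. The list held 9 epithelial markers, and they did not all move the same way. In Apc against WT, Krt18 was called up (1.56 ± 0.17 on the log2 scale), and Krt20 and Vil1 were called down. Epcam was not called (edgeR adjusted p = 0.221). In Apc Eif3h against WT, Krt18 and Krt19 were called up, and again Krt20 and Vil1 down. The share called down, 22.2% each time, was below that over all genes (24.1% and 28.1%).

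Promoters were read first, because these genes moved together. RefSeq promoter windows (GRCm38.p6, 250 bases before to 50 bases after each start) were found for 38 of the 45 genes, in 45 windows. Gins1, Gins2, Gins4, Mcm4, Pole, Prim2 and Rfc2 had no entry. An E2F motif was searched as TTTCCCGC, TTTCGCGC, TTTGCCGC or TTTGGCGC on both strands. It was found in 15 of the 45 windows (33.3%), each of a different gene, against 2.26% of all 32851 windows of the same length. Windows with 2 or more matches, overlapping ones included, made up 11.1% of the replication genes' windows and 0.0974% of all windows. The genes with a match were Cdc6, Cdt1, Clspn, Gins3, Lig1, Mcm3, Mcm5, Mcm6, Mcm7, Orc1, Pola1, Pold1, Pole2, Rfc3 and Uhrf1.

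The 9 promoters whose match lay before the start are shown here, because they span licensing (Cdc6, Orc1, Mcm5, Mcm6, Mcm7), the helicase (Gins3), a polymerase (Pola1), the clamp loader (Rfc3) and maintenance methylation (Uhrf1). Each is written 5′ to 3′ on the gene's strand, with the E2F match in capitals. Orc1, on the plus strand at chr4:108579416-108579445, had its match 27 bases before the start. Cdc6 was read on the plus strand at chr11:98907988-98908045, Mcm5 on the plus strand at chr8:75109331-75109392, and Uhrf1 on the plus strand at chr17:56304103-56304160. Gins3 was read on the plus strand at chr8:95633507-95633536. The minus strand carried Mcm6 at chr1:128359720-128359840, Mcm7 at chr5:138172030-138172059, Pola1 at chrX:93632261-93632318 and Rfc3 at chr5:151651209-151651229. In GENCODE M21 the shorter stretches of Gins3, Mcm7 and Rfc3 lie in, and that of Orc1 partly in, exons of longer transcripts of the same gene, that of Mcm7 also in an exon of Ap4m1 on the other strand. Those of Cdc6 and Uhrf1 lie in an intron of a longer transcript, and those of Mcm5, Mcm6 and Pola1 lie outside any annotated gene.
Orc1: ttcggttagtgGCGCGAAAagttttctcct
Cdc6: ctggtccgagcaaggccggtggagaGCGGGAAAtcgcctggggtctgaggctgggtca
Mcm5: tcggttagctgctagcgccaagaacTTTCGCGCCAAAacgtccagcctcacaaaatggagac
Mcm6: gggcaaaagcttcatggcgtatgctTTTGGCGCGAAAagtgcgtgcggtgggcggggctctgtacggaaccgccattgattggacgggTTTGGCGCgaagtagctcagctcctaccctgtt
Mcm7: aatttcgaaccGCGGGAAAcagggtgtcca
Gins3: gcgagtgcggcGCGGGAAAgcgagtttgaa
Pola1: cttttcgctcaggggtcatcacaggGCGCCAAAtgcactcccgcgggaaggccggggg
Rfc3: acgtcgcacgcTTTCGCGCtc
Uhrf1: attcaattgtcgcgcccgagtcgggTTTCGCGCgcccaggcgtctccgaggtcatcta

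Mcm6 held 3 matches, 110, 106 and 47 bases before the start, the first pair overlapping on opposite strands. Mcm5 held a pair that overlap in the same way. A letter match is a description and not evidence of binding, and the windows without a match lack only these letters in these 300 bases. The CHR motif (TTTGAA or TTCGAA, both strands), known from promoters of mitotic genes, was found in 9 of the 45 replication windows (20%), 19.2% of all windows and 81.2% of the 16 windows of a list of mitosis genes. The E2F motif was found in 1 of those 16 mitosis windows (6.25%). The CCAAT box, bound by NF-Y, was found on either strand in 57.8% of the replication windows, 37.4% of all windows and 87.5% of the mitosis windows.

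**Figure D1:**
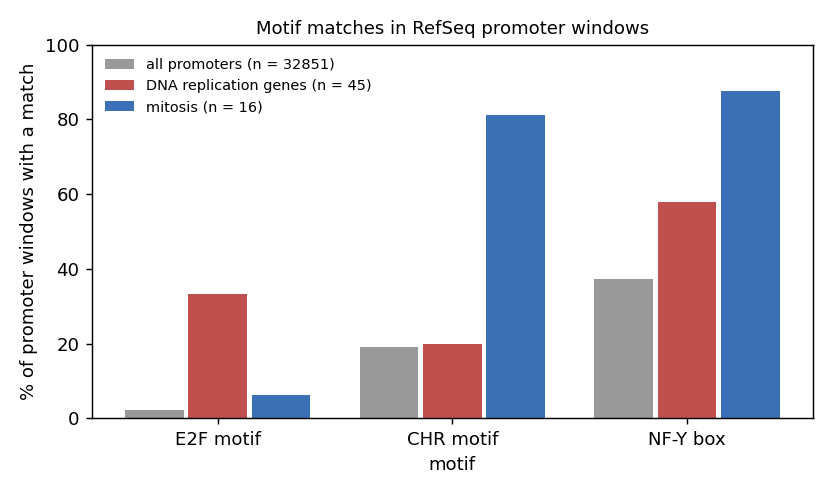
Share of RefSeq promoter windows (vertical axis, %) that hold an E2F, CHR or NF-Y (CCAAT) motif on either strand, for all promoters (grey), the DNA replication genes (red) and the mitosis list (blue). The replication genes stand at 33.3% for E2F against 2.26% of all promoters, and the mitosis list stands at 81.2% for CHR.

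The first comparison asks what differs in the intestine after Apc deletion. All 45 replication genes rose in Apc against WT and none fell (edgeR quasi-likelihood test, Benjamini-Hochberg adjusted p below 0.05 over all genes). Of all genes tested 27.7% were called higher and 24.1% lower in this comparison. The median log2 fold change of the 45 was 1.35, beside -0.01 over all genes tested, and single genes ran from 0.48 (Gins4) to 1.92 (Orc1). In 33 genes the change exceeded 2-fold. For every one of the 45, the lowest Apc library lay above the highest WT library, which held for 26.7% of all genes, and the reverse for 22%. In WT the 45 genes together held 0.1182, 0.1109, 0.08416 and 0.08496% of a library's counts. In Apc they held 0.3349, 0.2436, 0.2515 and 0.3152%, and in Apc Eif3h 0.3291, 0.2692, 0.2109 and 0.2775%. Both Apc-deleted groups lay wholly above WT and overlapped each other.

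**Figure D2:**
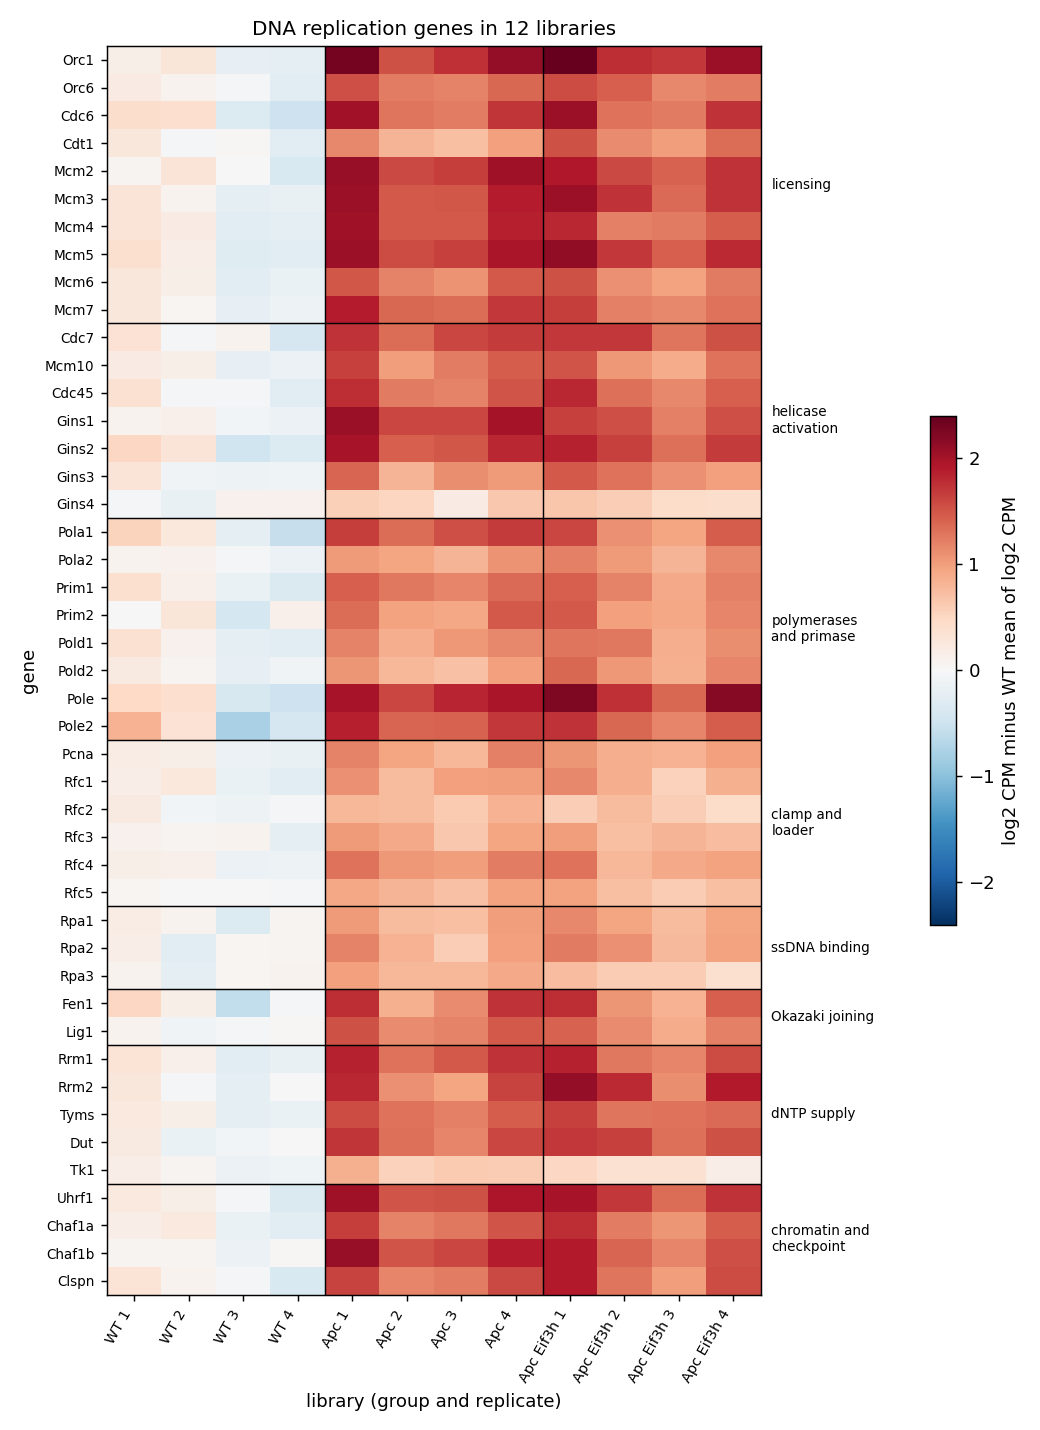
Each row is 1 of the 45 genes, ordered by role, and each column 1 of the 12 libraries. Colour gives log2 CPM minus the gene's WT mean (log2 scale, red higher, blue lower). All rows turn red in the Apc libraries, palest for Gins4 and deepest for Orc1.

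Licensing genes had the highest class median, a log2 fold change of 1.64 over 10 genes in Apc against WT. Orc1, the largest subunit of the origin recognition complex (chr4:108579423-108614833), stood at 3.25, 3.63, 2.58 and 2.55 CPM in WT, libraries 1 to 4 in that order here and below. It read 14.6, 8.52, 10.1 and 12.9 CPM in Apc and 16.2, 10.2, 9.62 and 12.3 in Apc Eif3h. The change against WT was 1.92 ± 0.23 in Apc (3.79-fold, adjusted p = 4.62e-05), from 31 to 51 reads per WT library. At the other end was Cdt1, which loads the MCM ring and is destroyed once S phase begins (chr8:122568015-122573554). It read 43.2, 34.8, 36.4 and 29.7 CPM in WT, 79.8, 62.6, 59.1 and 70.4 in Apc, and 103, 78.4, 71.2 and 90.4 in Apc Eif3h. Its change in Apc was 0.91 ± 0.14 (1.88-fold, adjusted p = 0.000248). Orc6, another ORC subunit, and Cdc6, the ATPase that works with ORC at the origin, rose by 1.33 ± 0.13 and 1.53 ± 0.26 on the log2 scale.

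The 6 genes of the MCM ring, Mcm2 to Mcm7, encode the helicase core and are used in equal numbers in each ring. Mcm2 (chr6:88883474-88898780) read 30.1, 35.7, 28.7 and 22.3 CPM in WT, 123, 86.2, 91.5 and 118 in Apc, and 109, 86.9, 77.1 and 95.6 in Apc Eif3h. Mcm3 (chr1:20802968-20820312) read 39.1, 33.3, 26.9 and 27.6 CPM in WT, 129.5, 87.6, 88.7 and 115 in Apc, and 129.6, 105, 80.2 and 105 in Apc Eif3h. In both genes libraries 1 and 4 were the high ones of the Apc group. Mcm4 (chr16:15623897-15637400) read 38.2, 35.4, 25.6 and 26.2 CPM in WT, 127, 85.5, 85.7 and 112 in Apc, and 108, 71.4, 73.4 and 84.1 in Apc Eif3h. Mcm5 (chr8:75109569-75128439) read 47.5, 40.6, 29.8 and 30.6 CPM in WT, 151, 107, 113 and 142 in Apc, and 159.9, 118, 97.8 and 126 in Apc Eif3h. The same pair of Apc libraries was high again, and no Apc or Apc Eif3h library came near the WT range.

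Mcm6 (chr1:128331590-128359664) read 83.4, 75.9, 57.3 and 61.7 CPM in WT, 192, 158, 145 and 192 in Apc, and 199.5, 147, 134 and 164 in Apc Eif3h. Mcm7 (chr5:138164583-138172422) read 55.2, 46.9, 40.01 and 41.9 CPM in WT, 169, 118, 115 and 148 in Apc, and 143, 105, 102 and 112 in Apc Eif3h. For all 6 genes both Apc-deleted groups lay above WT and overlapped each other. The log2 fold change in Apc against WT was 1.84 ± 0.16 for Mcm2, 1.73 ± 0.18 for Mcm3, 1.71 ± 0.18 for Mcm4, 1.79 ± 0.19 for Mcm5, 1.30 ± 0.15 for Mcm6 and 1.58 ± 0.15 for Mcm7. The adjusted p-values of the edgeR fit ran from 1.02e-05 (Mcm2) to 4.24e-05 (Mcm6). The 95% intervals of Mcm2 (1.49 to 2.19) and Mcm6 (0.97 to 1.63) overlap, and no difference between ring members was tested.

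**Figure D3:**
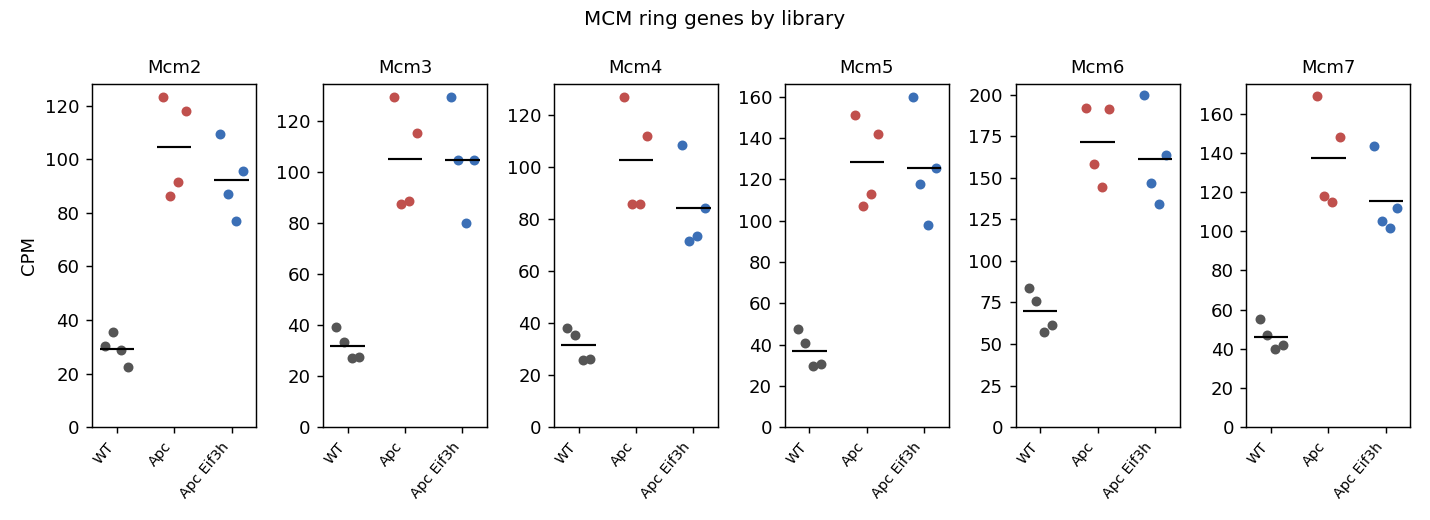
CPM (vertical axes, each from 0 and with its own scale) of the 6 MCM ring genes in each library of the 3 groups (WT grey, Apc red, Apc Eif3h blue), with the group mean as a line. In all 6 panels the WT points lie below every Apc and Apc Eif3h point, and the Apc and Apc Eif3h points overlap.

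Levels of different genes were compared per kilobase of annotated exon (union of all transcripts). Within the ring Mcm6 was the highest and Mcm2 the lowest in each group, at 14.91 against 4.2 CPM per kb in WT (a ratio of 3.55), 36.77 against 15.05 in Apc (2.44) and 34.51 against 13.26 in Apc Eif3h (2.6). The annotated exons of Mcm2 sum to 6956 bases, more than those of any other ring gene, and its level per kb rests on that length. Over all 45 genes Pcna, the sliding clamp, had the highest level per kb in each group (28.4, 58.3 and 54.1 CPM per kb in WT, Apc and Apc Eif3h), and Fen1 the lowest (0.80, 2.08 and 1.93). The rank of Fen1 is uncertain, because 84.19% of its exon bases also lie in exons of other genes and the strand setting is not given. Rrm2, the small subunit of ribonucleotide reductase, had rank 5 of 45 in WT, rank 3 in Apc and rank 2 in Apc Eif3h.

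Genes that turn the loaded ring into a working helicase had a median log2 fold change of 1.42 over 7 genes, and held the widest range of any class. The GINS complex has 4 subunits, and their genes spread over that whole range. Gins1 (chr2:150905400-150931280) read 6.35, 6.55, 5.74 and 5.44 CPM in WT, 25.2, 18.3, 18.2 and 24.1 in Apc, and 18.8, 17.4, 13.96 and 17.6 in Apc Eif3h. It rose by 1.83 ± 0.15 on the log2 scale in Apc (3.55-fold, adjusted p = 6e-06). Gins4 (chr8:23226616-23237659) read 16.4, 14.9, 18.2 and 18.04 CPM in WT, 25.02, 24.04, 19.3 and 26.3 in Apc, and 26.9, 25.4, 22.8 and 22.5 in Apc Eif3h. Its rise of 0.48 ± 0.11 (1.40-fold, adjusted p = 0.00369) was the smallest of the 45, with Apc 3 close above the WT range. Gins2 and Gins3 rose by 1.62 ± 0.21 and 1.08 ± 0.17. Cdc7, the kinase that fires origins, Mcm10, which helps activate the helicase, and Cdc45, the partner of GINS, rose by 1.57 ± 0.16, 1.34 ± 0.17 and 1.42 ± 0.18.

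The 8 genes of the polymerases and primase had a median log2 fold change of 1.22. Pole, the catalytic subunit of the leading-strand polymerase epsilon (chr5:110286306-110337474), read 15.7, 14.9, 8.57 and 7.99 CPM in WT, 44.2, 34.02, 40.03 and 43.6 in Apc, and 52.9, 37.9, 29.2 and 51.3 in Apc Eif3h. It rose by 1.77 ± 0.24 in Apc (3.42-fold, adjusted p = 0.000106), and WT 1 and WT 2 were well above the other WT libraries. Pold2, an accessory subunit of the lagging-strand polymerase delta (chr11:5872180-5878292), read 36.8, 33.2, 27.8 and 30.1 CPM in WT, 66.6, 55.5, 51.7 and 63.2 in Apc, and 82.2, 65.2, 57.2 and 72.1 in Apc Eif3h. Its rise was 0.89 ± 0.13 (1.85-fold, adjusted p = 0.000146). Among the other six, the catalytic subunits Pola1 and Pold1 rose by 1.50 ± 0.21 and 1.04 ± 0.14, and the accessory subunits Pola2 and Pole2 by 0.97 ± 0.10 and 1.45 ± 0.27. The primase genes Prim1 and Prim2, which make the RNA primers, rose by 1.28 ± 0.15 and 1.17 ± 0.19.

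The clamp and its loader had a median of 0.92 over 6 genes. Rfc4 (chr16:23113943-23127737) read 15.3, 15.2, 12.6 and 12.8 CPM in WT, 34.5, 28.8, 28.01 and 32.7 in Apc, and 34.2, 24.1, 26.2 and 27.3 in Apc Eif3h, a rise of 1.15 ± 0.12 in Apc (2.21-fold, adjusted p = 2.78e-05). Rfc2 (chr5:134581366-134601805) read 49.9, 40.8, 39.5 and 41.9 CPM in WT, 74.5, 72.6, 65.9 and 75.98 in Apc, and 64.8, 72.2, 64.2 and 58.1 in Apc Eif3h, a rise of 0.75 ± 0.09 (1.68-fold, adjusted p = 5.69e-05). Both encode subunits of replication factor C, which opens the clamp and sets it on DNA. Pcna itself rose by 1.04 ± 0.11, and Rfc1, Rfc3 and Rfc5 rose by 0.95 ± 0.14, 0.88 ± 0.11 and 0.86 ± 0.09.

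Replication protein A coats single-stranded DNA, and its 3 subunit genes moved by nearly equal amounts in Apc, with a median of 0.87. Rpa2 (chr4:132768332-132778752) read 32.7, 24.2, 30.4 and 30.6 CPM in WT, 67.1, 51.95, 43.8 and 57.7 in Apc, and 69.5, 62.7, 50.3 and 56.9 in Apc Eif3h. Rpa1 (chr11:75298166-75348324) read 47.1, 43.7, 33.1 and 43.2 CPM in WT, 84.2, 69.98, 68.2 and 83.3 in Apc, and 92.04, 79.9, 69.7 and 79.6 in Apc Eif3h. The changes in Apc were 0.90 ± 0.14 for Rpa2, 0.87 ± 0.12 for Rpa1 and 0.87 ± 0.10 for Rpa3 (adjusted p = 0.000276, 0.000129 and 3.91e-05).

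Both genes that finish Okazaki fragments rose. Fen1, the nuclease that trims the flap (chr19:10199132-10204169), read 2.63, 2.06, 1.25 and 1.81 CPM in WT, 6.41, 3.40, 4.13 and 6.23 in Apc, and 6.42, 3.90, 3.35 and 5.04 in Apc Eif3h. It rose by 1.35 ± 0.30 in Apc (2.55-fold, adjusted p = 0.00242), on 15 to 34 reads per WT library. In the annotation 84.19% of its exon bases also lie in exons of other genes, which are on the other strand (Gm10143 and Tmem258), and the authors' strand setting is not given in the sources used here. Lig1, the ligase that seals the nick (chr7:13277283-13311433), read 35.2, 31.2, 32.6 and 33.7 CPM in WT, 95.9, 72.96, 75.9 and 91.5 in Apc, and 88.97, 73.01, 61.3 and 76.9 in Apc Eif3h. Its rise was 1.34 ± 0.12 (2.53-fold, adjusted p = 1.07e-05).

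Enzymes that supply deoxynucleotides had a median of 1.39 over 5 genes. Rrm1, the large subunit of ribonucleotide reductase (chr7:102441695-102469771), read 62.8, 54.3, 41.8 and 44.1 CPM in WT, 181, 123, 138 and 166 in Apc, and 181, 121, 113 and 147 in Apc Eif3h. It rose by 1.58 ± 0.18 in Apc (2.995-fold, adjusted p = 3.46e-05). Tk1, the thymidine kinase of the salvage route (chr11:117815526-117826092), read 38.8, 36.5, 31.6 and 32.2 CPM in WT, 62.6, 50.9, 53.5 and 52.8 in Apc, and 49.2, 44.5, 44.6 and 38.5 in Apc Eif3h. Its rise in Apc was 0.66 ± 0.10 (1.58-fold, adjusted p = 0.000234). Rrm2, thymidylate synthase (Tyms) and the dUTPase gene Dut rose by 1.39 ± 0.23, 1.38 ± 0.13 and 1.46 ± 0.13.

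The 4 chromatin and checkpoint genes had a median of 1.57. Chaf1b, a subunit of the histone chaperone CAF-1 (chr16:93883901-93906115), read 10.5, 10.5, 9.15 and 10.3 CPM in WT, 43.1, 28.9, 30.8 and 37.1 in Apc, and 37.7, 26.7, 22.8 and 29.4 in Apc Eif3h, a rise of 1.78 ± 0.17 in Apc (3.44-fold, adjusted p = 1.21e-05). Clspn, the adaptor that passes stalled-fork signals to CHK1 (chr4:126556935-126593903), read 12.9, 10.8, 9.90 and 7.99 CPM in WT, 31.4, 22.9, 24.1 and 30.6 in Apc, and 38.2, 24.9, 20.5 and 30.3 in Apc Eif3h, a rise of 1.39 ± 0.20 (2.62-fold, adjusted p = 0.000158). Uhrf1, which brings the maintenance methyltransferase to new DNA, and Chaf1a rose by 1.75 ± 0.17 and 1.40 ± 0.17.

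Genes with and without an E2F match in the promoter window were all among those that rose in Apc. The median log2 fold change was 1.45 for the 15 with a match (0.88 to 1.92) and 1.33 for the 23 without (0.66 to 1.84), and the ranges overlap widely.

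The second comparison asks what the added loss of Eif3h does to these genes on the Apc-deleted background. None of the 45 passed the test in Apc Eif3h against Apc by edgeR and none by DESeq2. Of all genes tested 4.27% were called higher and 2.78% lower. At an unadjusted p below 0.05 there were 4, of which Cdt1 was the higher one and Gins1, Rpa3 and Tk1 were lower. Of all 17394 genes tested, 4095 passed that threshold, 2190 of them higher and 1905 lower. The median log2 difference was -0.05, beside -0.0019 over all genes, and single genes ran from -0.34 (Gins1) to 0.37 (Rrm2). The 95% interval of every one of the 45 differences lay within 1 log2 unit (2-fold) either way, and 30 lay within 0.5. The outermost bounds were -0.71 and 0.85, and the median width was 0.65.

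**Figure D4:**
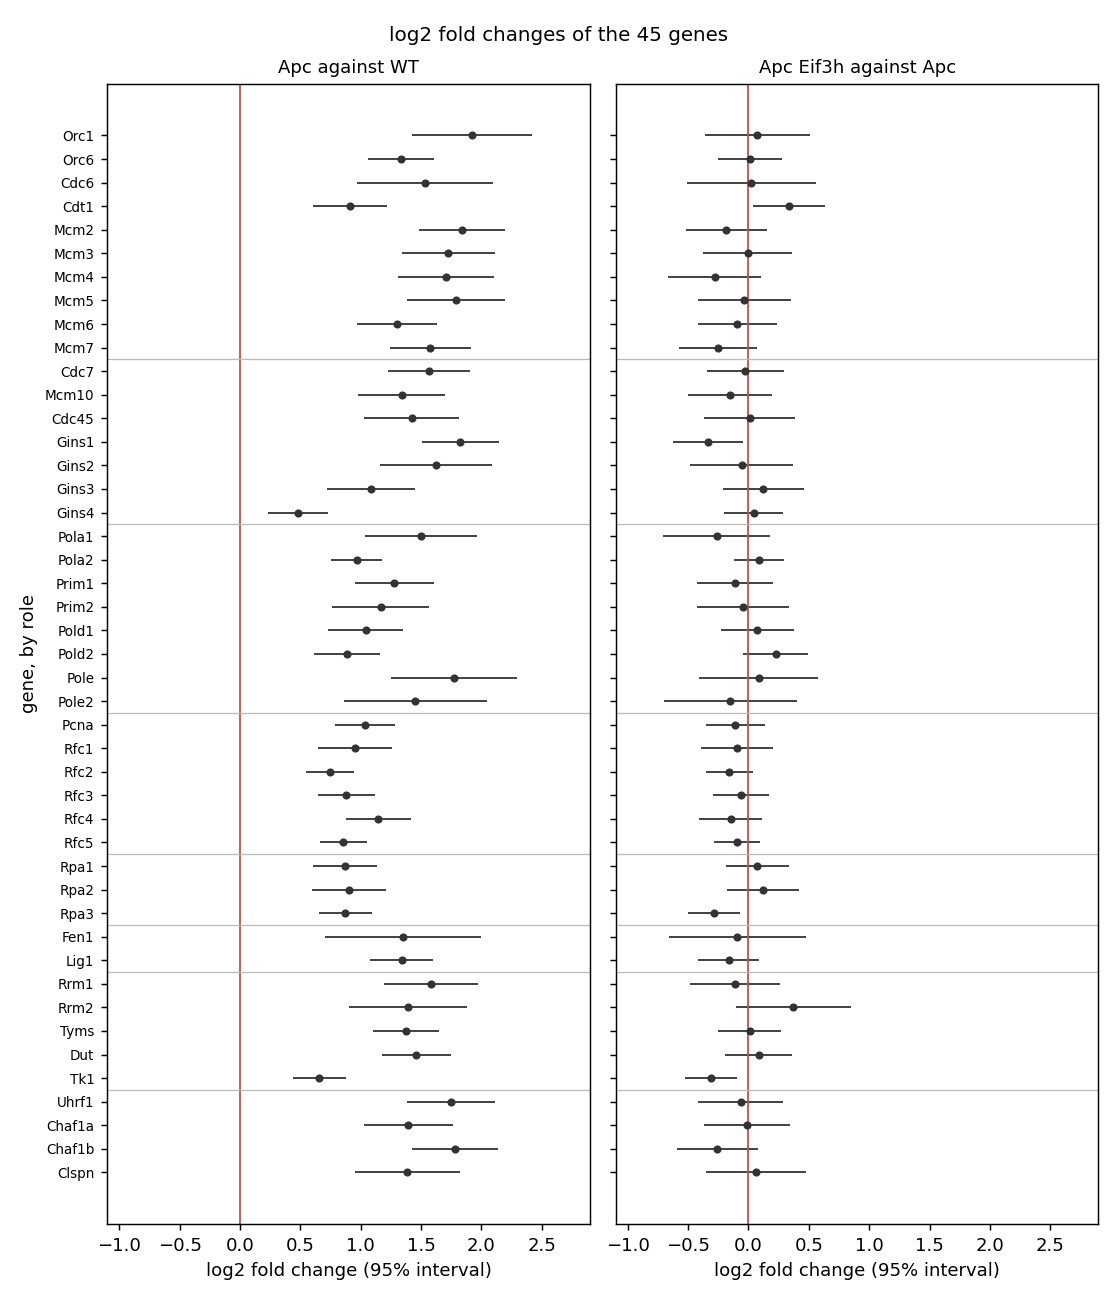
Log2 fold change (horizontal axis) of each gene, with its 95% interval from the edgeR fit, in Apc against WT (left) and Apc Eif3h against Apc (right). The 2 panels share the Apc libraries. On the left all 45 intervals lie above 0, and on the right all 45 lie within 1 either way.

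The 4 genes with the smallest p were Tk1, Rpa3, Gins1 and Cdt1. Tk1 differed by -0.31 ± 0.10 (adjusted p = 0.0792, 95% interval -0.53 to -0.10), and all 4 Apc Eif3h libraries were below all 4 Apc libraries. Rpa3, named here after its values were seen, read 16.1, 13.1, 15.6 and 15.98 CPM in WT, 30.1, 26.4, 26.5 and 28.6 in Apc, and 25.3, 23.2, 23.2 and 19.9 in Apc Eif3h. Its difference was -0.29 ± 0.10 (adjusted p = 0.102), and again the 2 groups did not overlap. These were the only 2 of the 45 without overlap in this comparison, both lower, where 7.26% of all genes had non-overlapping groups in that direction and 7.89% in the other. Gins1 differed by -0.34 ± 0.13 (adjusted p = 0.154) and Cdt1 by 0.34 ± 0.14 (adjusted p = 0.168), both with overlapping groups. Rrm2, likewise named after its values were seen, read 42.1, 34.04, 29.4 and 34.3 CPM in WT, 121, 73.7, 66.8 and 106 in Apc, and 149.5, 120.4, 74.8 and 130.3 in Apc Eif3h. Its difference of 0.37 ± 0.22 (adjusted p = 0.334, 95% interval -0.11 to 0.85) was the largest in size and had the highest upper bound, and the groups overlapped.

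Among the MCM ring the log2 differences between Apc Eif3h and Apc ran from -0.28 ± 0.18 (Mcm4, 95% interval -0.66 to 0.10) to -0.01 ± 0.17 (Mcm3, -0.37 to 0.36). By class the medians were -0.02 for licensing, -0.03 for helicase activation, 0.01 for the polymerases, -0.10 for the clamp and loader, 0.07 for single-strand binding, -0.13 for Okazaki joining, 0.01 for deoxynucleotide supply and -0.04 for chromatin and checkpoint.

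Against WT, all 45 were also called higher in Apc Eif3h, where 29.8% of all genes were higher and 28.1% lower. The median log2 fold change was 1.26, beside -0.03 over all genes, and 35 genes exceeded 2-fold. Apc Eif3h and Apc share the WT libraries in these 2 comparisons. In 44 of the 45 all Apc Eif3h libraries lay above all WT libraries, against 26.9% of all genes, with the reverse in 20.7%. The exception was Tk1, whose Apc Eif3h 4 (38.5 CPM) lay just below WT 1 (38.8). Tk1 also had the smallest change against WT, 0.34 ± 0.10 (1.27-fold, adjusted p = 0.0109). Orc1 again had the largest at 1.99 ± 0.23 (3.98-fold, adjusted p = 2.02e-05). Rrm2 stood at 1.76 ± 0.23, Cdt1 at 1.25 ± 0.14 and Gins4 at 0.53 ± 0.11.

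Within each group the 45 genes were high or low together in the same libraries. WT 1 held the highest WT value for 36 of them, Apc 1 the highest Apc value for 38, and Apc Eif3h 1 the highest Apc Eif3h value for 44. Apc 4 was above the Apc mean for 43 genes, while Apc 2 and Apc 3 were above it for 3 each. Apc Eif3h 3 had the lowest value of its group for 36 genes, and WT 3 and WT 4 for 20 each. On the mean over the genes of log2 CPM, the 4 libraries lay 0.25, 0.10, -0.17 and -0.18 from the group mean in WT, 0.22, -0.18, -0.17 and 0.12 in Apc, and 0.28, -0.05, -0.24 and 0.02 in Apc Eif3h. WT 1, Apc 1 and Apc Eif3h 1 also had their groups' highest mean for the lists of other replication factors, checkpoint genes and S phase cyclins and kinases described below. In the other lists this did not hold in every group. Apc 4 was highest for mitosis, WT 2 for the E2F regulators and Apc Eif3h 2 for other deoxynucleotide supply. Apc 1 was also the female library of its group and had its lowest total, 10483112 counts. How often these libraries were highest over all genes was not counted. Replicate numbers carry no order.

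Markers of absorptive enterocytes, the non-dividing cells of the villus, moved the other way. Their summed level was 36180, 38720, 50780 and 48250 CPM in WT, 16480, 25510, 18890 and 17040 in Apc, and 23130, 18090, 30450 and 20510 in Apc Eif3h. Of the 10 markers 8 fell in Apc against WT and 7 in Apc Eif3h against WT, with none called between the Apc-deleted groups, and none of them was at 0. Of all genes tested 24.1% and 28.1% were lower in these 2 comparisons with WT. Within WT the libraries with the lower enterocyte sums (WT 1 and WT 2) had the higher replication shares. Apc 1 had the lowest sum and the highest share of its group, and Apc 2 the reverse. Apc Eif3h was mixed: library 3 had the highest sum and the lowest share, but library 1 had the highest share with the next highest sum, and library 2, with the lowest sum, had a share of 0.2692%, below those of libraries 1 and 4. All 8 crypt stem cell markers rose in Apc against WT, with sums of 641 to 1143 CPM in WT, against 2905 to 3546 in Apc, and of 2092 to 2624 in Apc Eif3h, where 2 of the 8 were called lower than in Apc. Of all genes 27.7% were higher in Apc against WT, and 2.78% were lower in Apc Eif3h against Apc. These marker sums cannot tell a change in cell numbers from a change in RNA per cell. The part of cell makeup in the replication genes' change was not tested.

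**Figure D5:**
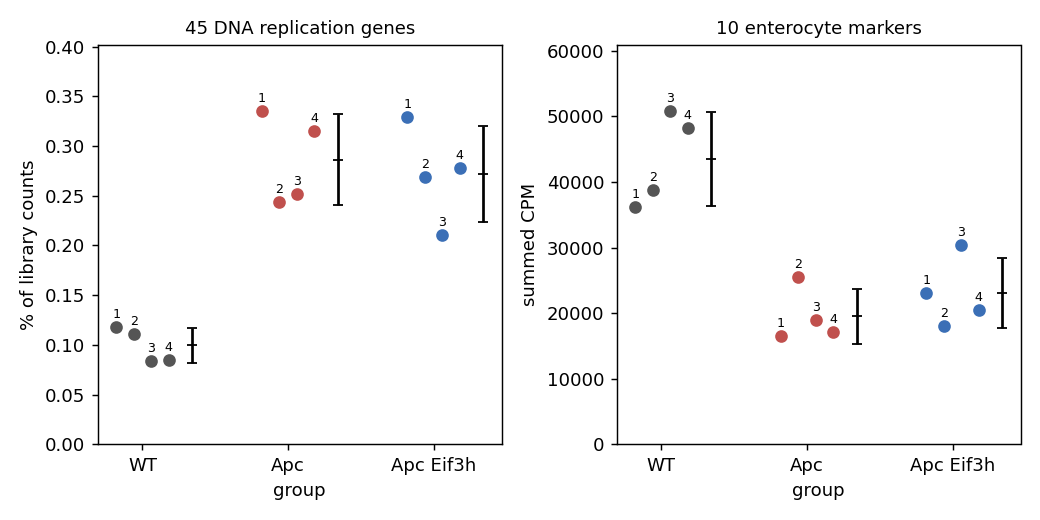
Left, percent of each library's counts held by the 45 replication genes. Right, summed CPM of 10 enterocyte markers. Both axes start at 0, numbers mark the replicate, and the bar beside each group gives the mean and SD of 4 libraries. The highest WT replication share, 0.1182%, lies below the lowest of the other libraries, 0.2109%, and the lowest WT enterocyte sum, 36180 CPM, lies above the highest of the others, 30450 CPM.

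Immune cells divide too, so their markers, and those of stromal cells, were set beside the same libraries. T cell markers fell in Apc against WT in 7 of 8 tested, with sums of 114.5 to 353 CPM in WT, against 60.7 to 93.2 in Apc, and of 67.98 to 130.6 in Apc Eif3h. B cell markers summed to 28.5 to 162 CPM in WT and 14.3 to 21.7 in 7 of the Apc-deleted libraries, but to 1027 CPM in Apc Eif3h 2. Germinal centre B cell markers, which mark dividing B cells, summed to 69.8 CPM in that library and 28.9 to 41.8 in the others. Macrophage markers fell in 5 of 7 in Apc and in Apc Eif3h against WT, with sums of 270.5 to 753 CPM in WT, against 242 to 297 in Apc, and of 209 to 429.5 in Apc Eif3h. Plasma cell markers fell in 2 of 5 and 3 of 5, and endothelial markers in 3 of 5 and 5 of 5. Fibroblast markers fell in 1 of 6 in Apc and in 5 of 6 in Apc Eif3h (median log2 fold change -0.93), with sums of 821 to 1716 CPM in WT, against 719 to 1230 in Apc, and of 521 to 709 in Apc Eif3h. Against Apc, all 6 fibroblast markers had lower values in Apc Eif3h (median -0.58), 5 of them at an unadjusted p below 0.05, but none was called by edgeR. Of all 17394 genes tested, 1905 were lower at that unadjusted threshold. Smooth muscle markers fell in 2 of 6 in each comparison with WT. Of all genes tested 24.1% were called lower in Apc against WT and 28.1% in Apc Eif3h against WT. The lists are short. The smooth muscle counts (33.3%) and the fibroblast count in Apc (16.7%) are near or below those shares, and are not read as a change in those cells. The part of immune and stromal cells in the replication genes' values was not tested. Apc Eif3h 2 was above its group mean for 17 of the 45 replication genes, and without it 0 of the 45 were called between Apc Eif3h and Apc.

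Other genes of the pathway were taken from fixed lists, which were drawn up with earlier results of these data known. They mostly followed the 45 in Apc against WT. Of all genes tested 27.7% were higher and 24.1% lower in that comparison. Of 35 other replication factors 33 rose and 1 fell. Tipin, a fork protection factor, rose by 1.66 ± 0.14 and Dbf4, the activator of the Cdc7 kinase, by 1.56 ± 0.14 (adjusted p = 9.59e-06 and 1.11e-05). Pold4, the smallest polymerase delta subunit, fell by 0.61 on the log2 scale (adjusted p = 0.00997), and Mcm9, which works in repair rather than in the ring, was not called (0.23 ± 0.12, adjusted p = 0.12). Among 12 other genes of deoxynucleotide supply 7 rose, of which Dctd (2.12 ± 0.22) and Dtymk (1.19 ± 0.14) had the smallest p. The 2 that fell were Samhd1, which breaks down deoxynucleotides (-0.80 ± 0.15), and the cytidine deaminase gene Cda (-1.03 ± 0.22).

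Of 18 E2F, RB and DREAM regulators 10 rose and 4 fell. The share that fell, 22.2%, was close to the 24.1% of all genes. So was the share of the S phase genes below (30%), and that of the deoxynucleotide supply genes (16.7%) was lower. The falls in these lists are therefore given as single calls. E2f1, an activator of replication genes, read 9.68, 9.47, 8.07 and 5.85 CPM in WT, 28.2, 22.7, 21.2 and 24.9 in Apc, and 25.7, 24.5, 18.1 and 23.2 in Apc Eif3h. It rose by 1.55 ± 0.17 in Apc (adjusted p = 2.58e-05), and the repressor E2f6 rose by 1.02 ± 0.11. Those that fell were Rb1 (-0.71 ± 0.12) and Rbl2 (-0.35 ± 0.08), which hold E2F factors in check, Lin37 of the DREAM complex (-0.32 ± 0.10) and the activator E2f2 (-0.53 ± 0.12). Rbl1, related to Rb1 and Rbl2 and named here after its values were seen, was called higher (0.25 ± 0.10, edgeR adjusted p = 0.0463), with overlapping groups. E2f4 and E2f7, likewise named afterwards, rose by 0.72 ± 0.09 and 1.40 ± 0.25. Of 10 S phase cyclins and kinases 6 rose, with Ccna2 at 1.33 ± 0.15 and Ccne1 at 1.94 ± 0.23. The CDK inhibitors Cdkn1a (-0.58 ± 0.12) and Cdkn1b (-0.25 ± 0.08) fell, as did the phosphatase gene Cdc25a (-0.25 ± 0.09). All 10 replication checkpoint genes rose, with Wee1 at 1.29 ± 0.10 and Atr at 1.16 ± 0.16, and so did all 18 mitosis genes, with Ccnb1 at 1.75 ± 0.13 and Cdk1 at 1.48 ± 0.13. The medians were 1.06, 0.70, 0.47, 0.96, 0.91 and 1.44 for the 6 lists in the order given. In Apc Eif3h against WT the counts of higher and lower genes were 31 and 0, 7 and 2, 11 and 3, 6 and 1, 10 and 0, and 18 and 0 in the same order. Of all genes 29.8% were higher and 28.1% lower there.

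Between Apc Eif3h and Apc, 3 of these 103 genes were higher and 2 lower. Over the lists together, that is no larger a share than the 4.27% higher and 2.78% lower of all genes. The pooled counts therefore show nothing about the lists as a whole, and the genes are given as single calls. Asf1a, a histone chaperone of the fork, read 23.1, 18.1, 17.3 and 20.5 CPM in Apc and 32.5, 30.01, 22.4 and 29.3 in Apc Eif3h, a difference of 0.54 ± 0.13 (adjusted p = 0.028). Dctpp1, which clears abnormal deoxycytidine triphosphates, was higher by 0.52 ± 0.12 (adjusted p = 0.0238), and Cdkn1a by 0.45 ± 0.12 (adjusted p = 0.0482). The lower pair were mitosis genes, Cenpf of the kinetochore (-0.69 ± 0.15, adjusted p = 0.0202) and Nusap1 of the spindle (-0.57 ± 0.12, adjusted p = 0.0188). Nusap1 read 46.5, 38.7, 47.3 and 47.9 CPM in Apc and 35.2, 26.5, 29.8 and 30.3 in Apc Eif3h, with no overlap. The 2 lower calls made up 11.1% of the 18 mitosis genes. Of these 18, 17 had lower values in Apc Eif3h, beside 28 of the 45 replication genes and 8740 of all 17394 genes tested. The median log2 difference of the 18 mitosis genes was -0.30, beside -0.05 for the 45 replication genes, and the difference between the lists was not tested. The calls among the 103 genes changed when single libraries were left out, as did the counts over all genes. The higher count was 0 without Apc 2, Apc 3, Apc Eif3h 1 or Apc Eif3h 2, 1 without Apc 4 and 7 without Apc Eif3h 3, and the lower count was 0 without Apc 3 or Apc Eif3h 2 and 1 without Apc 4.

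Counting could affect some of the 45, since the reads were 36 bases long and the strand setting is not given in the sources used here. More than 50% of exon bases lay in exons of another gene for Fen1, Gins2 (67.32%, Gse1 on the other strand) and Chaf1a (52.5%, Ubxn6 on the other strand). More than 20% of 36-base words in the transcripts were shared with another gene for those and for Mcm7 (30.29%, Gm5487), Pcna (22.09%, Pcna-ps2) and Uhrf1 (21.53%, Gm5648 and Gm15953). Their values are therefore less certain. For 27 of the 45 less than 5% was shared.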

How the data were processed

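Per the labels' protocols, RNA from 12 mouse small intestine libraries (3 groups of 4) was isolated on RNeasy Micro columns. TruSeq RNA libraries were read in pairs of 36 cycles (NextSeq 500). The authors deposited whole-number counts for each gene, without scaling. FastQC (0.11.8), Trim Galore (0.6.4), HISAT2 (2.1.0), featureCounts (1.6.4) and GRCm38 come from the submitters' processing notes. Neither the strand setting, nor the handling of reads with several matches, nor the annotation release is given in the sources used here.

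Groups were taken from the sample titles. Of 55421 rows, 55154 matched GENCODE M21 (GRCm38), the source of symbols, coordinates and exon lengths. The main test was the quasi-likelihood F test of edgeR (4.0.16, R 4.3.3) after filterByExpr and TMM scaling, with 1 mean per group over all 12 libraries. P-values were Benjamini-Hochberg adjusted over the 17394 genes tested, with calls below 0.05. The SE is the absolute log2 fold change over the square root of F. Levels are CPM after TMM. The script was tested on simulated data. DESeq2 1.42.0, other scalings, no filter, a fit of the 2 groups compared, males only, a replicate block and leaving out each library were the alternatives. Replicates differed by more than sampling noise (chi-square per gene 17.5 to 51.5 within groups).

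Values in every library are given for Mcm2 to Mcm7, for the genes with the highest and lowest Apc against WT change in each role class, and for any of the 45 called between Apc Eif3h and Apc. Of each other list, the 2 called genes with the smallest p and any called against the majority are named. The genes, lists and tests were chosen with earlier results of these data known.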

Additional observations from a re-analysis of the deposited data

Results flagged for a closer look

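In 138 groups of 4 values (45 genes and a summed share, in 3 groups), 4 held a library far from the other three by Dixon's criterion at 95%, where chance gives about 1 in 20. Gins3 stood at 5.578 CPM in WT 1 against 4.159 to 4.273 in the other WT libraries. Rfc3 stood at 15.98 CPM in WT 4 against 19.65 to 20.22, and Rpa3 at 13.1 CPM in WT 2 against 15.64 to 16.12. Tyms stood at 63.97 CPM in Apc Eif3h 1 against 50.06 to 52.37.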

How the results depend on the processing

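All 45 genes stayed higher in Apc and in Apc Eif3h against WT under each of the 15 settings run per comparison, with adjusted p-values of at most 0.0229 and 0.0366. With library totals in place of TMM the median of all genes moved to 0.22 in Apc against WT and 0.17 in Apc Eif3h against WT, and that of the 45 to 1.58 and 1.46. Between Apc Eif3h and Apc, 20 genes with no call changed sign in some setting.

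The replicate numbers do not pair the libraries: 12 same-numbered pairs correlated at -0.14 to 0.24, and 3 were over 0.1. With a replicate block Tk1 passed (-0.32, adjusted p = 0.0439, and 0.0792 without it; 0.0439 to 0.199 over all settings), so 1 of the 45 was called lower, and 594 genes were called higher and 399 lower between Apc Eif3h and Apc.

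Counts over all genes moved more. With library totals 2393 were lower in Apc against WT and 3175 in Apc Eif3h against WT, and 485 higher and 488 lower between Apc Eif3h and Apc. Higher genes then made up 74, 67.5 and 49.8% of calls, against 53.5, 51.5 and 60.6% with TMM. Between Apc Eif3h and Apc 306 were lower without the filter, and 400 higher and 259 lower in males only. In the other pathway lists 5 (library totals) and 6 (males only) were lower in Apc against WT, and between Apc Eif3h and Apc 1 (library totals), 5 (DESeq2) and 1 (only the 2 groups compared) were higher. Leaving out 1 library at a time gave 242 (without Apc 3) to 1152 (without Apc Eif3h 3) higher and 164 (without Apc 3) to 615 lower genes between Apc Eif3h and Apc, with 0 to 7 higher and 0 to 2 lower in the other lists.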
